A study of Mus musculus with 8 samples.

Results

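The 10 genes described here encode the enzymes that cut and rejoin DNA during V(D)J recombination. They were taken by name from 24411 genes of the deposited tables, and all 10 were found and passed the filter on low counts. Dntt, Rag1 and Rag2 are known for their restriction to developing lymphocytes, and Xrcc5, Xrcc6, Prkdc, Dclre1c, Lig4, Xrcc4 and Nhej1 belong to the general end joining pathway. Wild-type C57BL/6 mouse marrow was sorted into 4 populations of common myeloid progenitors, with 2 RNA libraries per population and 8 in all. These progenitors are cells placed at the root of the granulocyte, monocyte, erythroid and megakaryocyte lineages. Every population was KIT-positive and lacked CD16/32, the Fc receptors of the neutrophil and macrophage branch. The CD41/CD9-negative population was CD34dim and carried neither of the surface proteins in its name. The CD34bright population was CD41+ and CD9+, and the CD48bright and CD48dim populations were CD34dim, CD41+ and CD9+ and differed in CD48. Whether the replicates stem from different animals or sorting runs is not given in the labels. The p-values therefore reflect library-to-library spread alone, and that spread may be technical.

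V(D)J recombination assembles antigen receptor genes in developing B and T cells. The RAG1 and RAG2 proteins together cut the DNA beside the gene segments, leaving hairpin ends on the coding side, and terminal transferase, the product of Dntt, adds untemplated bases to the opened ends. The cut ends are sealed by the classical end joining pathway, which every dividing or resting cell uses to mend double-strand breaks. In it the Ku proteins hold the ends, the kinase made by Prkdc activates the hairpin-opening nuclease Artemis (Dclre1c), and DNA ligase IV with its partners joins the strands. Mice that lack a RAG gene have no mature B or T cells, and loss of several of the end joining factors gives the same block together with sensitivity to radiation. Early lymphoid progenitors are known to transcribe Dntt and the RAG genes before any receptor gene is complete.

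The libraries held between 7237587 and 20632005 expected counts. The unit CPM used for levels divides a count by the TMM-scaled library total, and 13177 genes were tested. The sort markers followed the gate that names the CD41/CD9-negative population: Itga2b, which encodes CD41, lay at 2.83 and 2.18 CPM there, against 64.3 to 155.2 CPM in the other 6 libraries. The CD48dim libraries stood apart from each other, with a rank correlation over genes of 0.836 between them, against 0.954 to 0.976 within each other population. Malat1, a nuclear RNA, reached 38947 CPM in the second CD48dim library, with 5004 to 14867 CPM elsewhere, and a list of 10 mature neutrophil markers summed to 4175 and 625 CPM in the CD48dim libraries. The same list differed within CD41/CD9-negative cells, at 702 CPM in replicate 1 and 49.9 CPM in replicate 2, while the CD34bright and CD48bright libraries lay at 115.2 to 165.6 CPM. S100a9, a neutrophil marker of that list, lay at 229 and 13.0 CPM in the CD41/CD9-negative libraries, and the part of such cells in the results was not tested. Results are therefore also given without both CD48dim libraries, a setting that, unlike the other alternatives, was not planned beforehand.

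The terminal transferase gene Dntt had a mean 1073-fold higher in CD41/CD9-negative than in CD48dim cells, where it rested on 25 and 3 counts. It lies at chr19:41029275-41059525 (build GRCm38.p6, the same assembly as mm10), with 12 exons in its longest transcript model. Its promoter is shown because its low number of CpG sites is compared with those of the end joining genes further down. The sequence runs from 250 bases before to 50 bases after the transcription start (RefSeq, plus strand, chr19:41029025-41029324), with CpG sites in capitals.
Dntt promoter: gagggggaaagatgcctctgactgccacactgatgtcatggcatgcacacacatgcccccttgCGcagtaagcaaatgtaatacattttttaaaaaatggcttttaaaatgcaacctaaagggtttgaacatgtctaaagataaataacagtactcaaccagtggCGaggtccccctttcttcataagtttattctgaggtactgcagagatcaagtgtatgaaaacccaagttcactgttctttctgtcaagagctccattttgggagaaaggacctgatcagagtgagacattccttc

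Dntt reached 1503 and 907 CPM in the CD41/CD9-negative libraries, against 18.5 and 11.02 CPM in CD34bright, 39.9 and 98.3 CPM in CD48bright and 1.84 and 0.412 CPM in CD48dim libraries. No 2 populations overlapped: the CD41/CD9-negative libraries were highest, then CD48bright, CD34bright and CD48dim. The lowest library, CD48dim replicate 2, held 3 counts, whose exact 95% Poisson interval runs from 0.0850 to 1.20 CPM and covers counting error only. The means were 1205 ± 422 CPM in CD41/CD9-negative, 14.7 ± 5.26 in CD34bright, 69.1 ± 41.2 in CD48bright and 1.12 ± 1.01 in CD48dim cells (SD, n = 2 each).

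**Figure D1:**
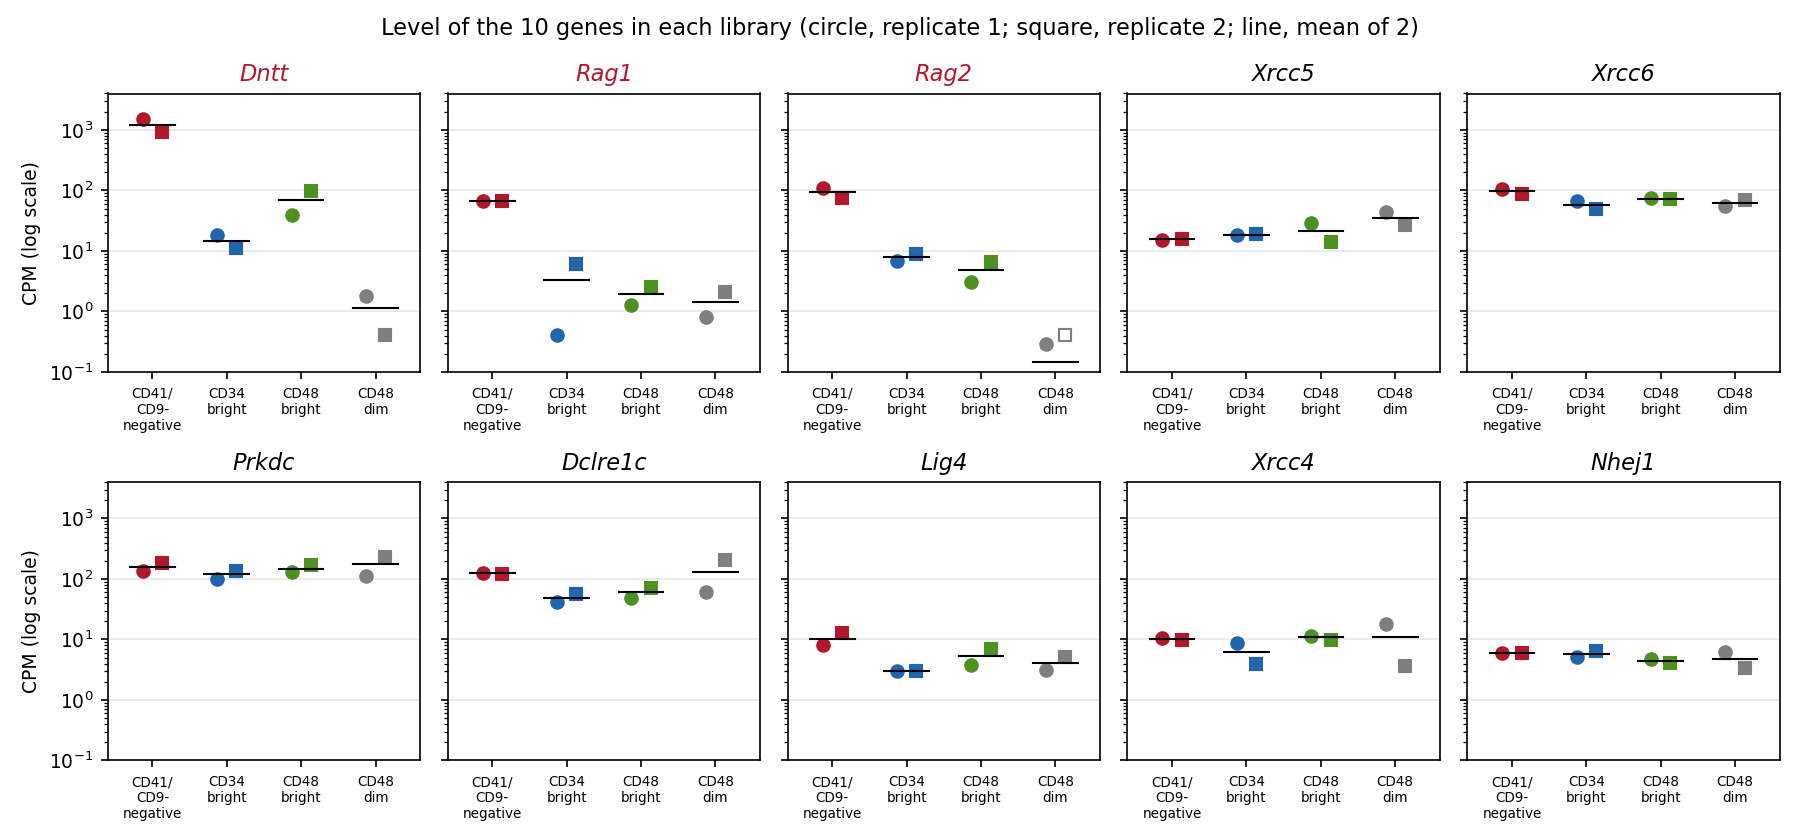
Level of each of the 10 genes in CPM (log scale) in the 8 libraries, by sorted population; circles are replicate 1, squares replicate 2, horizontal lines the mean of both, and gene names in red mark Dntt, Rag1 and Rag2. The open square for Rag2 is a library with 0 counts, drawn at the level that 3 counts would give (0.412 CPM). The 3 red genes are highest in both CD41/CD9-negative libraries, while the other genes span 1.84-fold (Nhej1) to 5.02-fold (Dclre1c) between their lowest and highest library.

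Rag1 and Rag2 encode the subunits of the recombinase and are neighbours on chromosome 2, with Rag1 at chr2:101638252-101649532 on the minus strand and Rag2 at chr2:101624712-101632528 on the plus strand. Their 3' ends face each other across 5723 bases. Their promoters are given in the same layout, Rag1 from the minus strand (chr2:101649483-101649782) and Rag2 from the plus strand (chr2:101624462-101624761).
Rag1 promoter: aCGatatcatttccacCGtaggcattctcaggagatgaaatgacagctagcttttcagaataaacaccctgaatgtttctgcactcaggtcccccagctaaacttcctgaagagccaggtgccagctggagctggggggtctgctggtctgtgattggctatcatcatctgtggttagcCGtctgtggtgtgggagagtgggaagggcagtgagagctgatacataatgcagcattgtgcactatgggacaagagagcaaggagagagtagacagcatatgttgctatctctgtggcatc
Rag2 promoter: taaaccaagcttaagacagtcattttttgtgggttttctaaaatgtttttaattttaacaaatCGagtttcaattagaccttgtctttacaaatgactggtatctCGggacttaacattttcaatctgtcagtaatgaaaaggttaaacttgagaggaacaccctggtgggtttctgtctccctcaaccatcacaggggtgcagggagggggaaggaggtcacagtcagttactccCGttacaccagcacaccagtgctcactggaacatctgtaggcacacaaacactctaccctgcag

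Rag1, the subunit that binds and cuts DNA, lay at 66.2 and 66.9 CPM in the CD41/CD9-negative libraries, against 0.413 and 6.18 CPM in CD34bright, 1.30 and 2.56 CPM in CD48bright and 0.808 and 2.06 CPM in CD48dim libraries. Both CD41/CD9-negative libraries were above all 6 others, and the other 3 populations overlapped one another. The CD34bright libraries differed from each other more than those of any other population, with 8 counts in replicate 1 and 87 in replicate 2. The population means were 66.6 ± 0.525 CPM in CD41/CD9-negative, 3.30 ± 4.08 in CD34bright, 1.93 ± 0.890 in CD48bright and 1.43 ± 0.886 in CD48dim cells (SD, n = 2 each).

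Rag2, the subunit that assists RAG1 and reads histone H3 methylation, lay at 109.6 and 75.7 CPM in the CD41/CD9-negative libraries, against 6.81 and 8.81 CPM in CD34bright, 3.12 and 6.58 CPM in CD48bright and 0.294 and 0 CPM in CD48dim libraries. The populations did not overlap, although the lowest CD34bright and the highest CD48bright library lay close together. The 0 in CD48dim replicate 2 allows a level of up to 0.507 CPM (upper end of the exact 95% Poisson interval, counting error only), and replicate 1 of that population held 4 counts. The means were 92.7 ± 24.0 CPM in CD41/CD9-negative, 7.81 ± 1.42 in CD34bright, 4.85 ± 2.45 in CD48bright and 0.147 ± 0.208 in CD48dim cells (SD, n = 2 each).

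Across the 4 populations, edgeR's quasi-likelihood test with Benjamini-Hochberg adjustment over all tested genes called 3 of the 10 genes at an adjusted p below 0.05, namely Dntt (adjusted p = 0.00123), Rag1 (0.0303) and Rag2 (0.00380). Of all tested genes, 2.44% were called in this comparison. Without both CD48dim libraries the adjusted p was 0.000125 for Dntt, 0.00337 for Rag1 and 0.000199 for Rag2. The Rag1 call was lost when a CD41/CD9-negative library was left out (adjusted p = 0.162 without replicate 1 and 0.152 without replicate 2) or a CD48bright library (0.0541 and 0.0523), and the Rag2 call without CD41/CD9-negative replicate 1 (0.0514).

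Set against CD34bright cells, Dntt and Rag2 rose in CD41/CD9-negative cells, 2 of the 10 genes, beside 0.842% of all tested genes called in either direction and 0.577% called as higher. The log2 fold change was 6.35 ± 0.71 for Dntt (SE, n = 2 against 2; 95% interval 4.75 to 7.95; adjusted p = 0.00888, edgeR) and 3.57 ± 0.64 for Rag2 (2.12 to 5.01; adjusted p = 0.0417). Rag1 had a log2 fold change of 4.35 ± 1.07 and did not pass the test (adjusted p = 0.125), and its value was 7.27 without CD34bright replicate 2. With the replicate number fitted as a block Rag1 passed (5.01, adjusted p = 0.0268, edgeR), so its call depends on the setting. Without both CD48dim libraries Rag1 also passed (4.37; adjusted p = 0.00940), and the adjusted p was 8.47e-05 for Dntt and 0.000511 for Rag2. The Dntt call was lost without CD34bright replicate 1, CD34bright replicate 2 or CD41/CD9-negative replicate 1 (adjusted p = 0.0622, 0.0821 and 0.0601). The Rag2 call was lost without any 1 of the 6 libraries outside CD48dim (adjusted p from 0.0529 to 0.396).

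Set against CD48bright cells, Dntt and Rag2 again passed the test in CD41/CD9-negative cells, 2 of the 10 beside 0.212% of all tested genes in either direction and 0.0835% as higher. The log2 fold change was 4.13 ± 0.64 for Dntt (SE, n = 2 against 2; 95% interval 2.69 to 5.57) and 4.26 ± 0.67 for Rag2 (2.76 to 5.76), each with an adjusted p of 0.0485 (edgeR). Rag1 had the largest estimate of the 3 and the widest interval, 5.12 ± 1.12 (2.61 to 7.63; adjusted p = 0.131). It passed with the replicate number fitted as a block (5.33, adjusted p = 0.0387, edgeR). Without CD48bright replicate 2 the values were 4.91 for Dntt and 4.89 for Rag2. Both calls lie close to the threshold and were lost when any 1 of the 6 libraries outside CD48dim was left out (adjusted p from 0.0651 to 0.399 for Dntt and to 0.515 for Rag2). Without both CD48dim libraries all 3 passed (adjusted p = 0.00116 for Dntt, 0.00829 for Rag1 and 0.000763 for Rag2).

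Set against CD48dim cells, all 3 genes rose in CD41/CD9-negative cells, 3 of the 10 beside 4.02% of all tested genes in either direction and 1.98% as higher. The log2 fold change was 9.93 ± 0.85 for Dntt (SE, n = 2 against 2; adjusted p = 0.000830, edgeR), 5.58 ± 1.16 for Rag1 (adjusted p = 0.0326) and 8.93 ± 0.89 for Rag2 (adjusted p = 0.00178), where the CD48dim side of Rag2 rests on 4 counts in all. The log2 fold change of Dntt was 11.49 without CD48dim replicate 1, and without CD48dim replicate 2 that of Rag1 was 6.35 and that of Rag2 8.26. Without CD48dim replicate 1 no fold is given for Rag2, since the remaining CD48dim library held 0 counts. The Rag1 call was lost without CD41/CD9-negative replicate 1 (adjusted p = 0.140) or replicate 2 (0.149). In these bulk samples, fewer cells of a type and less RNA per cell cannot be told apart.

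Among the CD41+ CD9+ populations, both Dntt and Rag2 had lower levels in CD48dim than in CD34bright and CD48bright cells. In CD34bright against CD48dim cells Rag2 rose by 5.36 ± 0.83 on the log2 scale (adjusted p = 0.0374, edgeR), 1 of the 10 genes beside 0.577% of all tested genes in either direction and 0.364% as higher, and Dntt had 3.58 ± 0.69 (adjusted p = 0.0575). In CD48bright against CD48dim cells Dntt rose by 5.81 ± 0.73 (adjusted p = 0.0216), again 1 of 10 beside 0.387% of all tested genes in either direction and 0.273% as higher, and Rag2 had 4.67 ± 0.83 (adjusted p = 0.0625). The Rag2 call was lost without either CD34bright library (adjusted p = 0.166 without replicate 1 and 0.120 without replicate 2) or either CD41/CD9-negative library (0.0839 and 0.0728), and the Dntt call without CD48bright replicate 2 (0.0709) or either CD41/CD9-negative library (0.0507 and 0.0529). With limma-voom neither call held (adjusted p = 0.105 for Rag2 and 0.129 for Dntt), nor did either in a fit of the compared populations alone (0.312 and 0.241, edgeR). Rag2 was 4.70 without CD48dim replicate 2 in CD34bright against CD48dim cells, and in CD48bright against CD48dim cells Dntt was 7.37 when CD48dim replicate 1 was left out and 5.03 when CD48bright replicate 2 was. Rag1 had 1.23 ± 1.03 in CD34bright against CD48dim and 0.46 ± 1.04 in CD48bright against CD48dim cells (adjusted p = 0.551 and 0.882). These became -1.66 without CD34bright replicate 2 in CD34bright against CD48dim cells, and -0.08 without CD48bright replicate 2 or -0.12 without CD48dim replicate 1 in CD48bright against CD48dim cells. Between CD34bright and CD48bright cells 0 of the 10 genes were called, beside 0% of all tested genes (262 genes had an unadjusted p below 0.05, and DESeq2 called 33), and Dntt had a log2 fold change of -2.22 ± 0.60 (unadjusted p = 0.00427, adjusted p = 1).

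**Figure D2:**
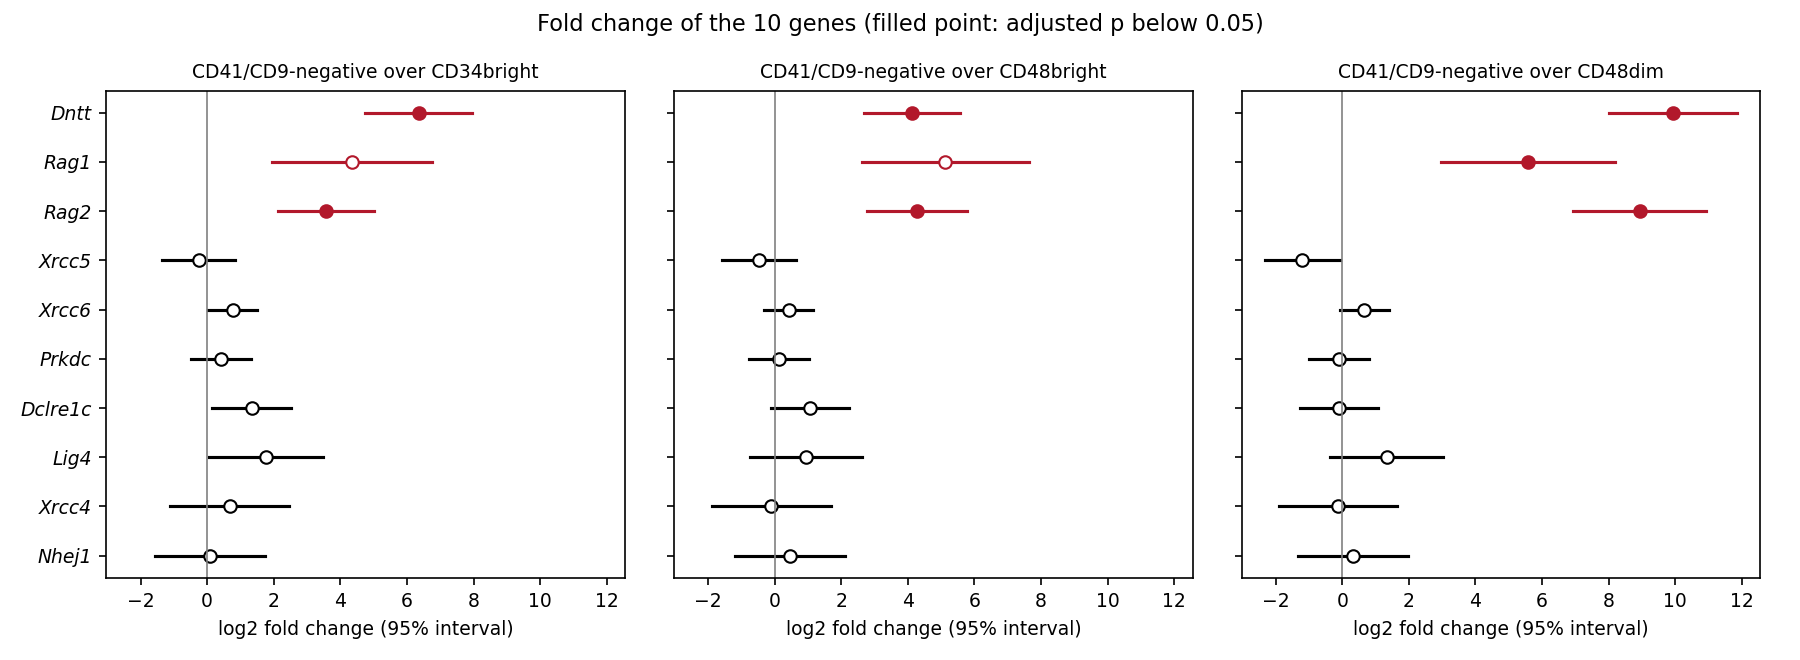
log2 fold change of the 10 genes with its 95% interval in CD41/CD9-negative cells over CD34bright, CD48bright and CD48dim cells, from edgeR's fit of all 8 libraries; filled points have an adjusted p below 0.05 and red marks Dntt, Rag1 and Rag2. The intervals of the 3 red genes lie wholly above 0 in all 3 panels, from 1.94 (Rag1 over CD34bright) upward, while the end joining intervals include 0 apart from those of Xrcc6, Dclre1c and Lig4 over CD34bright and of Xrcc5 over CD48dim cells.

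Rag2 overlaps Iftap, a gene on the opposite strand that the files name B230118H07Rik (chr2:101560779-101629031), and the labels' protocols say that the libraries carry no strand information. The spans share 4320 bases, but the transcript models listed in the files share 0 exonic bases. GENCODE vM21 adds longer Iftap transcripts that run through both RAG genes to 101649532, and with these Iftap shares 208 exonic bases with Rag2 and 80 with Rag1. Iftap, whose product is known as a partner of intraflagellar transport, did not share the order of the RAG genes: it lay at 12.2 and 15.2 CPM in the CD41/CD9-negative libraries, against 33.5 and 20.4 CPM in CD34bright, 22.6 and 14.8 CPM in CD48bright and 33.4 and 52.9 CPM in CD48dim libraries. The ratio of Rag2 to Iftap in CPM was 8.99 and 4.99 in CD41/CD9-negative libraries and at most 0.444 in the other 6. Iftap was not called across the 4 populations (adjusted p = 0.239, edgeR). How many reads of either gene were assigned to the other was not tested.

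**Figure D3:**
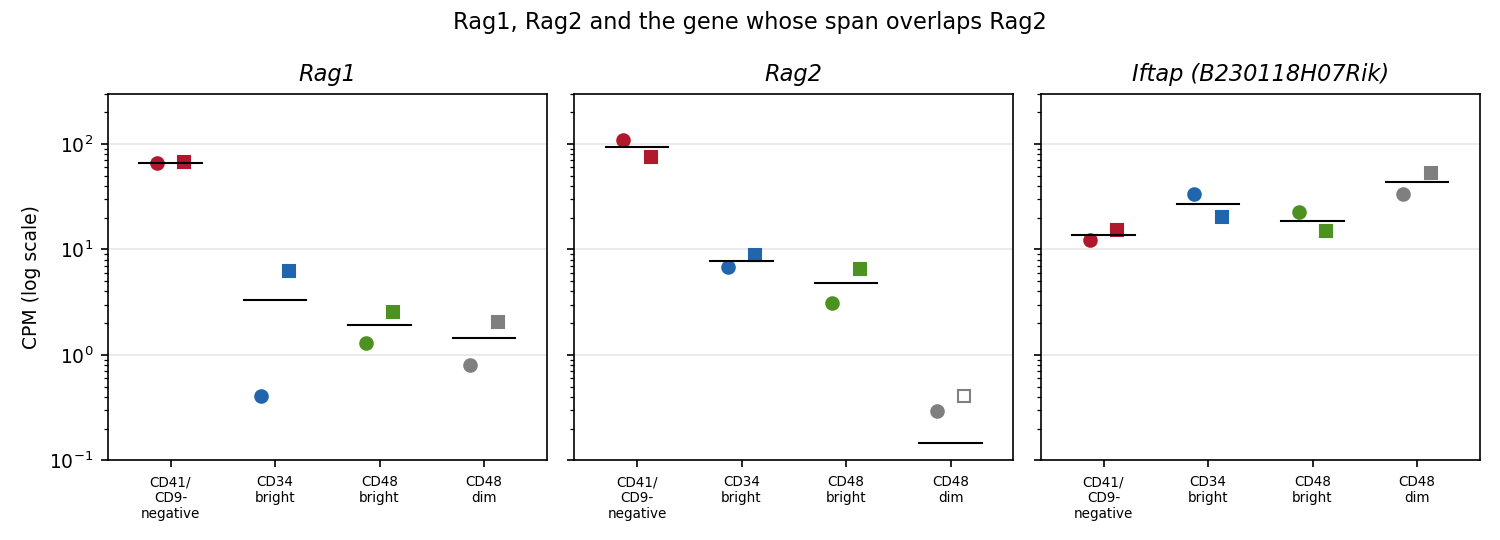
CPM (log scale) of Rag1, Rag2 and Iftap, the gene whose span overlaps Rag2, in the 8 libraries by population; circles are replicate 1, squares replicate 2, lines the mean of both, and the open square is 0 counts drawn at 0.412 CPM. Rag1 and Rag2 are highest in both CD41/CD9-negative libraries, and Iftap is highest in CD48dim replicate 2 (52.9 CPM).

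Levels of different genes are compared per transcript length, as TPM, as deposited. Dntt reached 1486 and 988 TPM in the CD41/CD9-negative libraries, above 99.6% and 99.4% of all genes in the files. Rag2 followed with 62.8 and 48.0 TPM and Rag1 with 18.6 and 20.8 TPM, so that the ratio of Rag2 to Rag1 in TPM was 3.39 and 2.31 there. In the CD34bright libraries this ratio was 34.8 and 2.90 and in the CD48bright libraries 4.85 and 5.24. Among the end joining genes Xrcc6 had the highest mean TPM in CD41/CD9-negative cells, 98.8 ± 6.99 TPM (SD, n = 2), and Lig4 the lowest, 5.18 ± 1.94 TPM. Dntt RNA thus exceeded that of every end joining gene in both CD41/CD9-negative libraries, while in both CD48dim libraries all 7 end joining genes except Lig4 in replicate 1 (1.41 against 1.73 TPM for Dntt) were above Dntt.

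The 7 end joining genes were detected in every library and 0 of them were called across the 4 populations, beside 2.44% of all tested genes, so that a count of 0 among so few genes is near the background. The adjusted p ran from 0.294 (Dclre1c) to 0.985 (Nhej1) in edgeR. Summed over the 7, their level was 410 and 438 CPM in the CD41/CD9-negative libraries, against 244 and 276 CPM in CD34bright, 300.2 and 345 CPM in CD48bright and 299 and 546 CPM in CD48dim libraries. The sum varied by less than that of Dntt, Rag1 and Rag2, which was 1679 and 1050 CPM in the CD41/CD9-negative libraries, against 25.7 and 26.0 CPM in CD34bright, 44.4 and 107 CPM in CD48bright and 2.94 and 2.47 CPM in CD48dim libraries. Both CD41/CD9-negative libraries were above all 6 others for 5 of the 10 genes, the 3 lymphoid ones and Xrcc6 and Lig4, which 8.1% of all tested genes also showed.

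The Ku subunits bind the broken ends as a ring. Xrcc6, which encodes Ku70 (chr15:81987833-82040085), lay at 107.2 and 88.0 CPM in the CD41/CD9-negative libraries, against 66.0 and 49.0 CPM in CD34bright, 74.3 and 71.8 CPM in CD48bright and 54.5 and 68.4 CPM in CD48dim libraries. Its CD41/CD9-negative libraries did not overlap with the others, and the log2 fold changes were 0.76 ± 0.33 over CD34bright (95% interval from 0.02 upward), 0.42 ± 0.33 over CD48bright and 0.67 ± 0.33 over CD48dim cells, none of them called (adjusted p = 0.478, 0.998 and 0.303, edgeR). Its partner Xrcc5, which encodes Ku80 (chr1:72307417-72394953), was lower in the CD41/CD9-negative than in the CD34bright and CD48dim libraries: it lay at 15.4 and 15.7 CPM in the CD41/CD9-negative libraries, against 18.5 and 18.8 CPM in CD34bright, 28.7 and 14.1 CPM in CD48bright and 44.1 and 27.1 CPM in CD48dim libraries. The log2 fold change of Xrcc5 over CD48dim cells was -1.20 ± 0.50 (95% interval -2.32 to -0.08; adjusted p = 0.228). Although both Ku proteins act as a pair, the ratio of Xrcc6 to Xrcc5 in TPM was 8.61 and 6.94 in the CD41/CD9-negative libraries, against 4.42 and 3.24 in CD34bright, 3.21 and 6.30 in CD48bright and 1.53 and 3.13 in CD48dim libraries. Xrcc6 overlaps the span of Desi1, with 0 shared exonic bases in the transcript models.

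Prkdc encodes the catalytic subunit of the DNA-dependent protein kinase, which Ku recruits (chr16:15637444-15842239). It lay at 136.8 and 184 CPM in the CD41/CD9-negative libraries, against 101.3 and 137.1 CPM in CD34bright, 128.1 and 167 CPM in CD48bright and 113.2 and 233.3 CPM in CD48dim libraries. Every pair of populations overlapped, and replicate 2 was the higher of the pair in each. The log2 fold changes of CD41/CD9-negative cells were 0.43 ± 0.40 over CD34bright, 0.12 ± 0.40 over CD48bright and -0.11 ± 0.40 over CD48dim cells, with 95% intervals that reached no further than -1.01 and 1.33.

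Dclre1c, which encodes Artemis (chr2:3424061-3474211), spanned the widest range over libraries among the end joining genes, 5.02-fold. It lay at 125.7 and 122.1 CPM in the CD41/CD9-negative libraries, against 40.9 and 57.4 CPM in CD34bright, 48.9 and 70.8 CPM in CD48bright and 60.1 and 205.2 CPM in CD48dim libraries. The CD41/CD9-negative libraries were above both CD34bright and both CD48bright libraries, and lay between the CD48dim ones. The log2 fold change was 1.33 ± 0.52 over CD34bright (95% interval 0.16 to 2.51; adjusted p = 0.412, edgeR) and 1.05 ± 0.52 over CD48bright cells (-0.12 to 2.22; adjusted p = 0.775). Without both CD48dim libraries Dclre1c passed the test across the remaining populations (adjusted p = 0.0360) and over CD34bright cells (log2 fold change 1.34; adjusted p = 0.0216), but not over CD48bright cells (adjusted p = 0.0954). Of its exonic bases 357 are shared with Suv39h2, a histone methyltransferase gene, so reads from these bases could belong to either gene. Suv39h2 averaged 29.3 ± 4.25 CPM in CD41/CD9-negative, 38.6 ± 5.56 in CD34bright, 37.2 ± 3.46 in CD48bright and 16.7 ± 2.84 in CD48dim cells (SD, n = 2 each), an order unlike that of Dclre1c.

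The ligation genes act last, when the processed ends are sealed. Lig4, the ligase itself (chr8:9970020-9977680), lay at 8.11 and 12.6 CPM in the CD41/CD9-negative libraries, against 2.99 and 3.06 CPM in CD34bright, 3.85 and 6.95 CPM in CD48bright and 3.16 and 5.08 CPM in CD48dim libraries. Its CD41/CD9-negative libraries were above the other 6, with log2 fold changes of 1.77 ± 0.76 over CD34bright (95% interval 0.06 to 3.48; adjusted p = 0.474, edgeR), 0.94 ± 0.75 over CD48bright (-0.73 to 2.61; adjusted p = 1) and 1.33 ± 0.76 over CD48dim cells (-0.36 to 3.03; adjusted p = 0.374). Xrcc4, the partner that stabilises the ligase (chr13:89848914-90089608), lay at 10.5 and 9.69 CPM in the CD41/CD9-negative libraries, against 8.66 and 3.91 CPM in CD34bright, 11.6 and 9.96 CPM in CD48bright and 18.1 and 3.71 CPM in CD48dim libraries. The CD48dim libraries enclosed all other values of Xrcc4, and the 95% interval of its log2 fold change in CD41/CD9-negative over CD34bright cells ran from -1.11 to 2.47. Nhej1, which encodes the XLF protein that aligns the ends with XRCC4 (chr1:74967346-75125226), lay at 6.06 and 6.05 CPM in the CD41/CD9-negative libraries, against 5.16 and 6.33 CPM in CD34bright, 4.73 and 4.02 CPM in CD48bright and 6.24 and 3.44 CPM in CD48dim libraries. Nhej1 was the steadiest of the 10, at 3.44 to 6.33 CPM in all 8 libraries, yet the 95% intervals of its fold changes (for example -1.57 to 1.73 over CD34bright cells) do not exclude a difference of 2-fold.

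The promoters were compared for CpG content, a feature the gene list did not use. RefSeq promoters of build GRCm38.p6 matched 9 of the 10 genes, all but Prkdc, and Lig4 has 2 starts. The 300 bases of Dntt held 2 CpG sites and those of Rag1 and Rag2 held 3 each, against a median of 7 over 32841 promoters on all chromosomes other than 18. The end joining promoters held 9 (Xrcc5), 10 (Nhej1), 12 (Dclre1c), 29 and 30 (the starts of Lig4), 30 (Xrcc6) and 31 sites (Xrcc4), so the 2 groups of matched promoters did not overlap. Low counts were common, however, since 14.1% of all promoters held fewer sites than Dntt and 23.3% fewer than Rag1 or Rag2. Xrcc5, Nhej1 and Dclre1c lay near the middle, with 54.2%, 56.5% and 60.4% of all promoters below them. For Lig4, Xrcc6 and Xrcc4 this share was 87.1% to 89.4%. The promoter of Xrcc4, the richest in CpG sites, is printed for comparison with those of Dntt, Rag1 and Rag2 above (RefSeq, minus strand, chr13:90089559-90089858, CpG sites in capitals).
Xrcc4 promoter: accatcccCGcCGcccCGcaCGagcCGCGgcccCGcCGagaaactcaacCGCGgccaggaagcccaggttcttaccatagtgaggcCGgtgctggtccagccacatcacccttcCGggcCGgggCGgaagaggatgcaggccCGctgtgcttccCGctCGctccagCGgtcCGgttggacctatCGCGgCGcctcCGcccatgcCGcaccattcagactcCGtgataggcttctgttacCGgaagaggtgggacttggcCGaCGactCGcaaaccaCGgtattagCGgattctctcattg

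**Figure D4:**
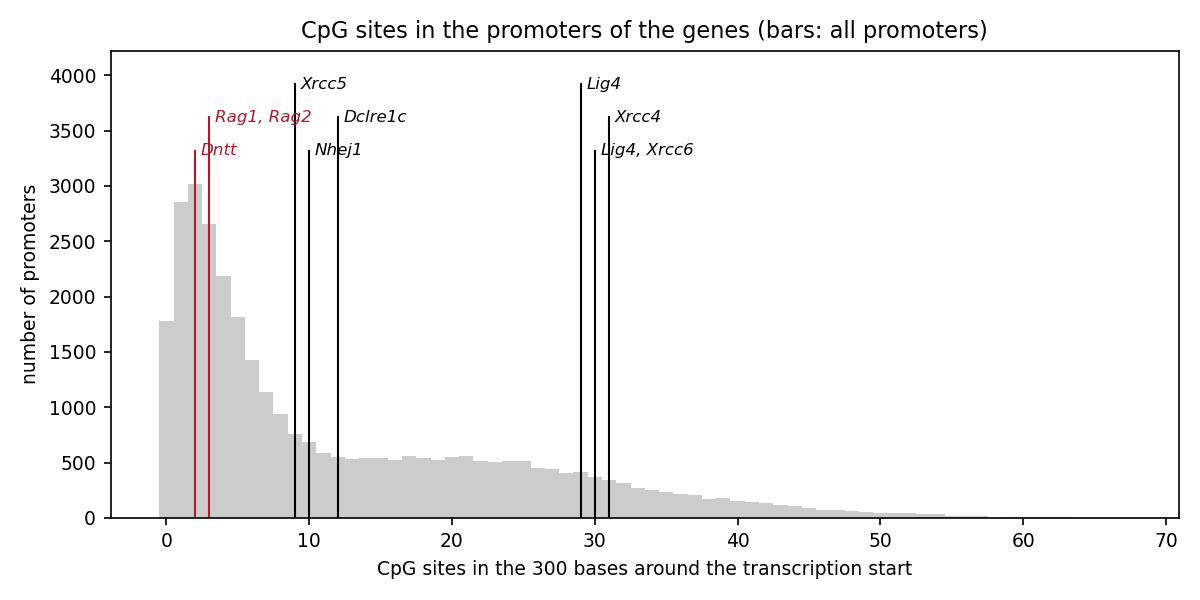
Number of CpG sites in the 300 bases around the transcription start (x axis) against the number of promoters (y axis); grey bars are all 32841 promoters and lines mark the genes, with Dntt, Rag1 and Rag2 in red. The red lines stand at 2 and 3 sites and the black lines of the end joining genes at 9 to 31 sites.

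Short motifs were counted on both strands of the same 300 bases. CANNTG, the core bound by E proteins, which reads the same on both strands, was present 3 times in Dntt, 4 times in Rag1 and 2 times in Rag2, and 72.3% of all promoters held it. GGAA, the core bound by ETS factors, was found 2 times in Dntt and 3 times in each RAG promoter, and 96.0% of all promoters held it. TGGGAA, a form of the Ikaros site that contains GGAA, was found 1 time in Rag1 and in neither Dntt nor Rag2, and 25.6% of all promoters held it. Other forms of the Ikaros site were not counted. GGGCGG, the GC box, was found in none of the 3, but in the promoters of Xrcc6, Xrcc4, Nhej1, Dclre1c and the downstream start of Lig4, and 35.7% of all promoters held it. TATAAA was found in none of the matched promoters, and 13.6% of all promoters held it, while CCAAT was found in those of Rag1, Xrcc5, Xrcc6 and Dclre1c, and 37.4% of all held it. These counts describe the letters in this window only.

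Over the 8 libraries, the genes whose log2 CPM ran most like Dntt among 9737 genes with a mean of at least 8 CPM were Tmsb10, a thymosin (Pearson r = 0.994), Tpm4, a tropomyosin (0.992), Cox6a2, a cytochrome oxidase subunit (0.988), Ly6d (0.987) and Tlr9, a receptor for unmethylated DNA (0.986). Their size differed: Tmsb10 averaged 155.9 CPM in CD41/CD9-negative and 42.6 CPM in CD48dim cells, whereas Ly6d, which marks lymphoid progenitors that are turning towards B cells, averaged 114.2 and 0.0734 CPM. Those most like Rag1 were Map4 (0.971), Apbb1ip (0.969), Ccnd1, the gene of cyclin D1 (0.965), Plekho1 (0.960) and Slc29a3 (0.960). Dntt correlated at 0.951 with Rag2 and at 0.754 with Rag1. These values describe 8 libraries in 4 populations that share depth and preparation, and carry no test.

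Other break repair genes were given for comparison, as lists of which the members were chosen with earlier results of these data known. In CD41/CD9-negative over CD48bright cells, 0 of 5 further end joining genes, 0 of 9 alternative end joining genes, 0 of 9 break signalling genes and 0 of 12 homologous recombination genes were called, beside 0.212% of all tested genes, so that counts of 0 are near the background. Their median log2 fold changes were 0.19, -0.10, -0.01 and -0.18, beside 0.42 for the 7 end joining members, 4.26 for Dntt, Rag1 and Rag2, and -0.02 for all tested genes. Across the 4 populations these 4 lists also had 0 calls. Polm, the polymerase closest in sequence to terminal transferase, averaged 8.59 CPM in CD41/CD9-negative, 4.80 in CD34bright, 4.84 in CD48bright and 10.3 in CD48dim cells, without the order seen for Dntt. Hmgb1 and Hmgb2, chromatin proteins that help RAG proteins to bind, averaged 468 and 505 CPM in CD41/CD9-negative, 548 and 705 CPM in CD34bright, 440 and 476 CPM in CD48bright and 358 and 317 CPM in CD48dim cells, and neither was called.

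**Figure D5:**
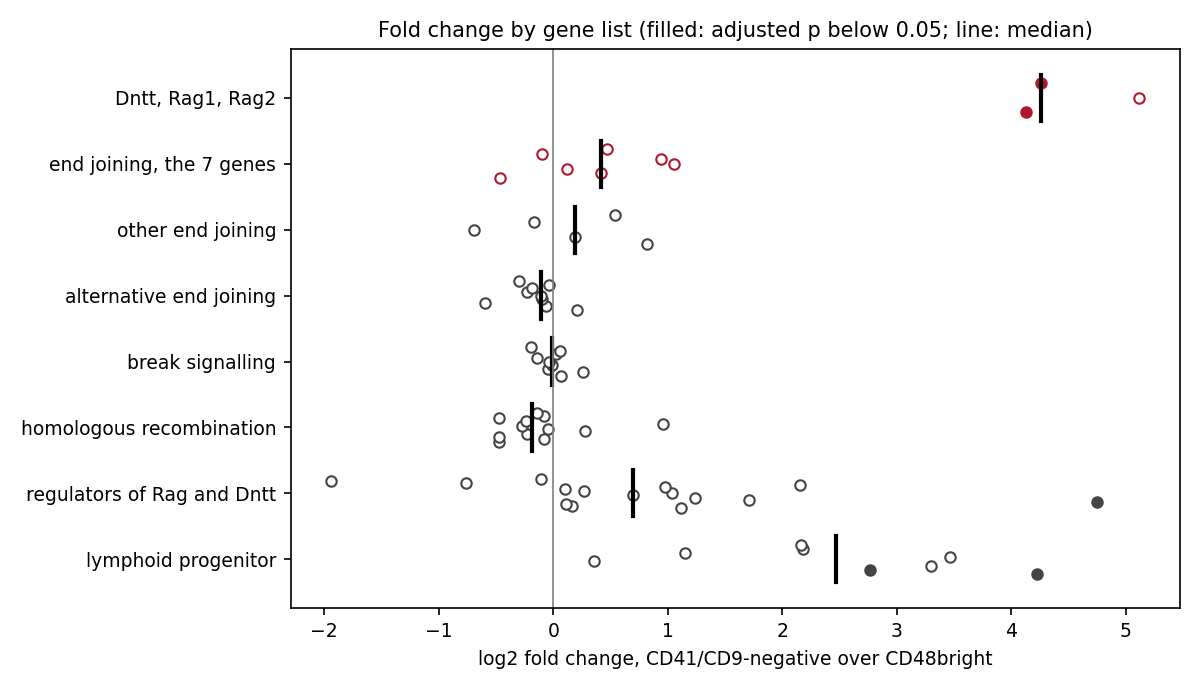
log2 fold change in CD41/CD9-negative over CD48bright cells (x axis) for the genes of each list (rows); each point is a gene, filled where the adjusted p is below 0.05, vertical lines are medians, and red marks the 10 genes. Dntt, Rag1 and Rag2 lie between 4.13 and 5.12, the 7 end joining genes between -0.46 and 1.05.

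Of 15 transcription factors known to bind or regulate the RAG and Dntt genes, 1 was called across the 4 populations, beside 2.44% of all tested genes. A count of 1 among so few genes does not set the list apart from that share. Ebf1, a factor that specifies B cells, lay at 31.9 and 42.8 CPM in the CD41/CD9-negative libraries, against 0.413 and 0.284 CPM in CD34bright, 0.884 and 1.92 CPM in CD48bright and 6.53 and 12.1 CPM in CD48dim libraries (adjusted p = 0.00801, edgeR). Unlike the 3 lymphoid members, Ebf1 was thus higher in both CD48dim than in the CD34bright and CD48bright libraries. Ikzf1, which encodes Ikaros, lay at 1185 and 1219 CPM in the CD41/CD9-negative libraries and at 498 to 610 CPM in the other 6, and was not called (adjusted p = 0.122). Pax5, which commits cells to the B lineage, lay at 7.08 and 1.94 CPM in the CD41/CD9-negative libraries and at 0 in 3 of the other 6. Over CD48bright cells 12 of the 15 had a positive log2 fold change, with a median of 0.70, beside a median of -0.02 for all tested genes. Gfi1, Myb and Id2 went the other way, and none of them was called. Gfi1 and Myb averaged 20.7 and 1002 CPM in CD41/CD9-negative, 50.4 and 1310 in CD34bright, 79.5 and 1704 in CD48bright and 62.0 and 1635 in CD48dim cells. Id2 averaged 20.7 CPM in CD41/CD9-negative, 3.23 in CD34bright, 22.3 in CD48bright and 2.95 in CD48dim cells.

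Most listed markers of lymphoid progenitors and plasmacytoid dendritic cells were, like Dntt, Rag1 and Rag2, highest in CD41/CD9-negative cells, but not all were. Of 8 lymphoid progenitor markers 7 were called across the 4 populations, beside 2.44% of all tested genes. The marker lists were chosen with earlier results of these data known. Among those called was Il7r, the interleukin 7 receptor, at 199.6 and 187 CPM in the CD41/CD9-negative libraries, against 0.413 and 1.14 CPM in CD34bright, 6.71 and 14.0 CPM in CD48bright and 0.367 and 0.137 CPM in CD48dim libraries. Cd27 of this list was not called and was highest in CD34bright cells. It averaged 209 CPM in CD41/CD9-negative, 291 in CD34bright, 163 in CD48bright and 233 in CD48dim cells. The summed level of the 8 lymphoid progenitor markers was 2434 to 3105 CPM in CD41/CD9-negative, 875 to 1009 in CD34bright, 633 to 990 in CD48bright and 443 to 557 in CD48dim libraries. Of 8 plasmacytoid dendritic markers 7 could be tested and 5 were called, beside the same 2.44%. Siglech lay at 199.3 and 151.1 CPM in CD41/CD9-negative libraries, at 1.34 to 25.0 CPM in CD34bright and CD48bright libraries and at 0 in both CD48dim libraries. Bst2 and Tcf4 of this list were not called (adjusted p = 0.428 and 0.0837, edgeR). They averaged 84.6 and 583 CPM in CD41/CD9-negative cells, their highest population. The other means were 29.4 and 133 CPM in CD34bright, 34.2 and 176 in CD48bright and 29.8 and 175 in CD48dim cells. The summed level of this list was 1899 to 2171 CPM in CD41/CD9-negative, 309 to 319 in CD34bright, 346 to 530 in CD48bright and 166.3 to 257 in CD48dim libraries. Ly6d and Ccr9 stand in both lists.

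Among B cell markers, Blnk and Fcrla were called across the 4 populations. Blnk, a B cell receptor adaptor, lay at 64.9 and 56.4 CPM in the CD41/CD9-negative libraries and at 0.0516 to 7.50 CPM in the other 6. Of 11 T cell markers 8 could be tested and 1 was called, beside 2.44% of all tested genes. It was Lck, a kinase of the T cell receptor, at 44.1 and 41.5 CPM in CD41/CD9-negative libraries and 1.37 to 9.78 CPM in the other 6. The T cell list summed to 132.5 and 67.6 CPM in CD41/CD9-negative, 11.8 and 12.3 in CD34bright, 33.6 and 33.8 in CD48bright and 32.1 and 23.9 in CD48dim libraries. Of this list, Cd3e lay at 0 to 3.59 CPM, Cd8a at 0 to 3.55 CPM and Ptcra at 0 to 0.183 CPM over all libraries. Cd4 and Gata3, also of this list, were instead highest in the CD48dim libraries. Cd4 lay at 5.87 and 8.52 CPM there, against 3.23 and 0.404 CPM in the CD41/CD9-negative libraries. Gata3 lay at 17.3 and 12.2 CPM, against 8.66 and 3.71 CPM. The part that B or T cells take in the levels of Dntt, Rag1 and Rag2 was not tested.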

How the data were processed

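RNA of 8 libraries was amplified from 5 ng total RNA (Ovation RNA-Seq System V2) and sequenced without strand information, per the labels' protocols. The submitters' processing notes name the build mm10, the aligner STAR (version 2.7.2a), RSEM (version 1.3.2) and edgeR (version 3.30.3). Expected counts and TPM, per the file headers, were the deposited values analysed, with transcript names that gave the gene models. The effective lengths in bases that the authors deposited were not used to scale any value. A second deposited table of expected counts per library holds 9918 of the genes, all 10 described here among them, with values that differ by 0 from the first.

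Libraries were grouped by the labelled sort gates. Expected counts were rounded (at most 2.20% of a library's genes held fractions, and none of the 10). Genes were filtered with filterByExpr of edgeR 4.0.16, scaled by TMM and tested with its quasi-likelihood F-test, with a mean per population and 4 residual and 5.46 prior degrees of freedom. The shared biological coefficient of variation was 49.8%. Tests covered any difference and all 6 pairs, two-sided, with Benjamini-Hochberg adjustment over 13177 genes. Standard errors were approximated as the absolute log2 fold change over the root of F. The code was tested on simulated counts. DESeq2 1.42.0, limma 3.58.1 and R 4.3.3 served the alternatives, namely another test, size factors, no filter, a replicate block, fewer populations and each library left out.

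The members and the gene lists were chosen with earlier results of these data known. Named genes are the members, the gene overlapping Rag2, list members called in the comparisons (up to 4 a list), markers that check a label, and the 5 genes most like Dntt and most like Rag1. Of 11 antigen receptor entries 3 matched by name, and the others were not used here. The B cell marker list is not reported in full here.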

Additional observations from a re-analysis of the deposited data

How the results depend on the processing

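All 132 alternative log2 fold changes of Dntt, Rag1 and Rag2 in CD41/CD9-negative cells over another population were positive, with a lowest value of 3.26, but the number of calls differed between settings. Across the 4 populations, 322 of all genes were called by edgeR, against 1700 with DESeq2, 1607 with no filter, 764 with the replicate block and 600 without both CD48dim libraries. The count ranged from 32 to 3399 when each library was left out, with 1 to 4 of the 10 genes. Over CD34bright cells the counts were 111 by edgeR, 630 with DESeq2, 532 with no filter, 266 with the block, 1081 in these populations alone and 725 without both CD48dim libraries, and 3 to 772 with a library left out. Of the 10 genes 4 were called in these populations alone and also 4 without both CD48dim libraries, in both cases Dntt, Rag1, Rag2 and the end joining gene Dclre1c. With no filter Dclre1c was also called across the 4 populations and in CD34bright against CD48dim cells. Over CD48bright cells they were 28, 359, 301, 99, 307 and 380 in the same order, and 0 to 435 with a library left out, with 0 to 3 of the 10. Over CD48dim cells they were 530, 1536, 1191 and 965, then 129 in these populations alone, and 81 to 3295 with a library left out, with 2 to 3 of the 10.

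In CD34bright against CD48bright cells, DESeq2 called 33 genes, no filter 39, with 1 of the 10 (Dntt), and 12 were called without both CD48dim libraries, with 0 to 20 when a library was left out. In CD34bright against CD48dim cells, 76 genes were called by edgeR, 1260 with DESeq2, 45 with limma-voom, 1018 with no filter, 682 with the block and 0 in these populations alone, and 0 to 3911 with a library left out. Of the 10 genes 2 were called with DESeq2, 0 with limma-voom, 3 with no filter, 2 with the block, 0 in these populations alone and 0 to 3 with a library left out. In CD48bright against CD48dim cells, 51 genes were called by edgeR, 775 with DESeq2, 5 with limma-voom, 588 with no filter, 178 with the block and 0 in these populations alone, and 4 to 3211 with a library left out. Of the 10 genes 2 were called with DESeq2, 0 with limma-voom, 2 with no filter, 2 with the block, 0 in these populations alone and 0 to 3 with a library left out. The cause was not tested.

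The replicate numbers are shared across populations, but the labels do not say that they mark a shared sort or mouse. For that reason the block is an alternative only, although the deviations of same-numbered libraries correlated weakly and positively, at 0.112 to 0.222 over the 6 pairs of populations. With the replicate block Rag1 also passed over CD34bright (log2 fold change 5.01; adjusted p = 0.0268, edgeR) and CD48bright cells (5.33; adjusted p = 0.0387), Dntt in CD34bright against CD48dim (3.58; adjusted p = 0.0240) and Rag2 in CD48bright against CD48dim cells (4.61; adjusted p = 0.0374). Of the end joining genes it called none.

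Signs that changed belonged to differences that were not called. Rag1 in CD34bright against CD48bright cells was -0.27 with limma-voom, and ranged from -2.17 to 1.69 with a library left out. Likewise Rag1 ranged from -1.66 to 2.15 in CD34bright against CD48dim and from -0.12 to 1.22 in CD48bright against CD48dim cells. For CD41/CD9-negative cells, Nhej1 ranged from -0.064 to 0.20 over CD34bright, and over CD48bright cells Xrcc5 from -0.89 to 0.14, Prkdc from -0.11 to 0.32 and Xrcc4 from -0.21 to 0.014. Where a library was left out, the lone library of its population was assumed to vary like the other populations. Depth limits Rag2 and Dntt in CD48dim and Rag1 outside CD41/CD9-negative cells, where libraries held 0 to 87 counts.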

Other observations

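The surrogate light chain genes Igll1 and Vpreb1, whose products stand in for an antibody light chain before V(D)J recombination is complete, were looked at after their values were seen. So was Vpreb3, which was listed with them but is not counted here as a surrogate light chain gene. Vpreb3 lay at 16.8 and 9.53 CPM in the CD41/CD9-negative libraries, against 0.206 and 1.07 CPM in CD34bright, 0.728 and 3.20 CPM in CD48bright and 0.220 and 0.275 CPM in CD48dim libraries, and it passed the test over CD48dim cells only (log2 fold change 5.70; adjusted p = 0.0483, edgeR). Igll1 lay at 6.14 and 10.1 CPM in the CD41/CD9-negative libraries and at 0 to 3.45 CPM in the other 6, and was not called in any of the 7 comparisons. Vpreb1, whose product pairs with that of Igll1, lay at 1.34 and 1.61 CPM in the CD41/CD9-negative libraries, within the range of 0 to 4.99 CPM in the other 6.

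Of the homologous recombination genes, Bard1, the partner of BRCA1, was called in CD41/CD9-negative over CD48dim cells (log2 fold change 1.96; adjusted p = 0.0201, edgeR) and in CD34bright over CD48dim cells (2.06; adjusted p = 0.0452). It lay at 68.9 and 74.4 CPM in the CD41/CD9-negative libraries, against 63.6 and 90.3 CPM in CD34bright, 58.6 and 59.9 CPM in CD48bright and 21.1 and 15.7 CPM in CD48dim libraries, so that CD48dim stood apart from the other 3 populations.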
